A study of Bos taurus with 20 samples.

Results

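TPI1, HK1 and PKM2 are 3 enzymes of glycolysis whose transcripts were followed here through 20 RNA-seq libraries of rumen epithelium. They were found by their Ensembl identifiers in the deposited expression files, ENSBTAG00000019782 for TPI1, ENSBTAG00000012380 for HK1 and ENSBTAG00000001601 for PKM2, and they are 3 of the 24616 genes listed there. All 3 were detected in every library and passed the filter on low counts.

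Glycolysis breaks glucose down to pyruvate in the cytosol and yields ATP and NADH. HK1, hexokinase 1, phosphorylates glucose at the entry of the pathway and so keeps it in the cell. TPI1, triosephosphate isomerase, interconverts the pair of triose phosphates made when the hexose is split, and PKM2, pyruvate kinase M, makes pyruvate and ATP in the last step. The rumen epithelium of cattle takes up the short-chain fatty acids that microbes make from feed, oxidizes part of them, and also uses glucose. PKM2 is the name the study gave to the whole gene, now called PKM, so its M1 and M2 splice forms cannot be told apart in these values. In the RefSeq annotation of assembly ARS-UCD2.0, which is another build than the one behind the files, HK1 lies beside HKDC1, a close relative. How reads that align equally well to relatives or processed pseudogenes of the 3 genes were treated is an uncertainty in each level.

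The study compared Hereford × Aberdeen Angus steers that ate less, or more, feed than their weight and growth predicted, a measure called residual feed intake (RFI). Low RFI means efficient animals. One library was deposited for each of 20 steers on the same finishing diet, with RNA from papillae of the ventral rumen, and the sample labels put 9 in the Low RFI and 11 in the High RFI group. The study's own list of 9 L-RFI and 9 H-RFI steers goes against these labels for 6 animals. Steers 23, 33, 47 and 205 are labelled High RFI and listed as L-RFI. Steers 219 and 455 are labelled Low RFI and listed as H-RFI, and steers 281 and 345, labelled Low RFI, are not in the list. The labels also change only once along the animal numbers, so that every number up to 205 is labelled High RFI and every number from 219 is labelled Low RFI. The groups below are those of the labels, and the values for the study's list stand beside them.

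Each library holds between 9622534 and 13960297 reads counted on genes (median 11829722). The level of each gene was deposited as counts per 1000000 of these reads (CPM). The column of each library carries a code whose middle digits, not explained in the sources used here, form 3 sets named 01 (8 libraries), 03 (6 libraries) and 12 (6 libraries). High and Low RFI labels occur in all of them. In a clustering of all genes, 5 libraries stood apart, namely library 47 of set 03 and libraries 105, 155, 317 and 345 of set 12. In these 5 libraries the 100 genes with the most reads took 26.4% to 31.0% of the reads, against 19.7% to 23.7% in the other 15. Genes detected numbered 16165 to 16985 in them and 16971 to 17657 in the others. Their scaling factors by the trimmed mean of M-values (TMM) lay between 0.711 and 0.918, against 0.975 to 1.16, so a TMM-scaled CPM is higher than the deposited CPM in the 5 libraries and lower in most of the others. Both scales are therefore given.

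The label of rumen epithelium was checked against markers of keratinocytes, the cells of this layered epithelium. KRT14, a keratin of the basal layer, lay between 0 and 1.35 CPM (median 0.378), and PKP1, a desmosome protein, between 0.0914 and 0.831 CPM. ZNF750, a regulator of keratinocyte differentiation, lay between 0 and 0.592 CPM, where 3 reads are worth 0.215 to 0.312 CPM depending on the library. These 3 markers were all under 1 CPM in 18 of 20 libraries. LYPD3 (2.94 to 6.58 CPM) and PKP3 (17.7 to 55.0 CPM) were present, as were KDR, an endothelial receptor (12.6 to 67.4 CPM), and MYL9, a myosin light chain of contractile cells (264 to 531 CPM). Of the markers of the labelled tissue, 3 of 5 were thus at or near 0, the basal keratin among them. These 5 come from the genes whose identifier could be paired with a symbol, and are not a full panel. How reads that align equally well to related genes were treated is an uncertainty in these levels too. In bulk tissue, fewer cells of a type and less RNA per cell cannot be told apart.

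TPI1, the triose isomerase, varied the most of the 3 enzymes. It lay between 284 and 623 CPM as deposited, with a median of 398 CPM, and rested on 3200 to 7154 reads per library. The coefficient of variation was 24.5%, whereas counting error alone gives 1.47%. After TMM scaling its coefficient of variation was 40.7% and its range 245 to 876, with libraries 47 (876), 155 (802) and 345 (647) the highest. Library 47 had 623 CPM as deposited, library 155 had 611 CPM, library 345 had 517 CPM, library 317 had 455 CPM and library 105 had 442 CPM. In the other 15 libraries TPI1 ran from 284 to 524 CPM with a median of 390 CPM, so the ranges overlapped.

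HK1, the entry enzyme, behaved otherwise on the deposited scale. It lay between 40.2 and 80.0 CPM with a median of 70.1 CPM, from 476 to 1029 reads, and its 5 lowest values were those of the 5 libraries that stand apart. Library 345 had 40.2 CPM, library 155 had 45.6 CPM, library 47 had 50.2 CPM, library 317 had 55.4 CPM and library 105 had 59.9 CPM. The other 15 libraries lay between 62.1 and 80.0 CPM and did not overlap with them. The 5 were picked by clustering on all genes, and how many genes separate them likewise was not counted. TMM scaling removed most of the gap in HK1. HK1 was then 50.3 to 70.6 in the 5 libraries and 60.2 to 81.2 in the other 15, and its coefficient of variation fell from 17.1% to 11.2%, against 3.65% from counting error. The standard deviation of HK1 after scaling, 0.16 on the log2 scale, was at percentile 5.67 of the 14293 genes past the filter, where the median gene had 0.404. At TPI1 it was 0.53 (percentile 66.2) and at PKM2 0.233 (percentile 17.5). As deposited, it was 0.27 for HK1 (percentile 27.5), 0.346 for TPI1 (percentile 41.9) and 0.212 for PKM2 (percentile 16.1). The median gene had 0.396 there, so TPI1 was above the median gene after scaling and below it as deposited.

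PKM2, the enzyme of the last step, lay between 568 and 1001 CPM as deposited with a median of 690 CPM, from 5863 to 12810 reads. Its coefficient of variation was 15.2% as deposited and 16.3% after scaling, against 1.1% from counting error. Library 299 of set 03 was the highest on both scales, with 1001 CPM as deposited and 1016 after TMM scaling, and library 55 of the same set came next, with 909 CPM as deposited. Of the 5 libraries that stand apart, library 47 had 568 CPM as deposited, library 345 had 598 CPM, library 155 had 619 CPM, library 317 had 677 CPM and library 105 had 681 CPM. These are low values on the deposited scale, but after scaling all 5 lay between 742 and 811, inside the range of the other 15 libraries (516 to 1016). The 5 libraries were found by clustering on all genes, these 3 included, so their levels are a description and were not tested.

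**Figure D1:**
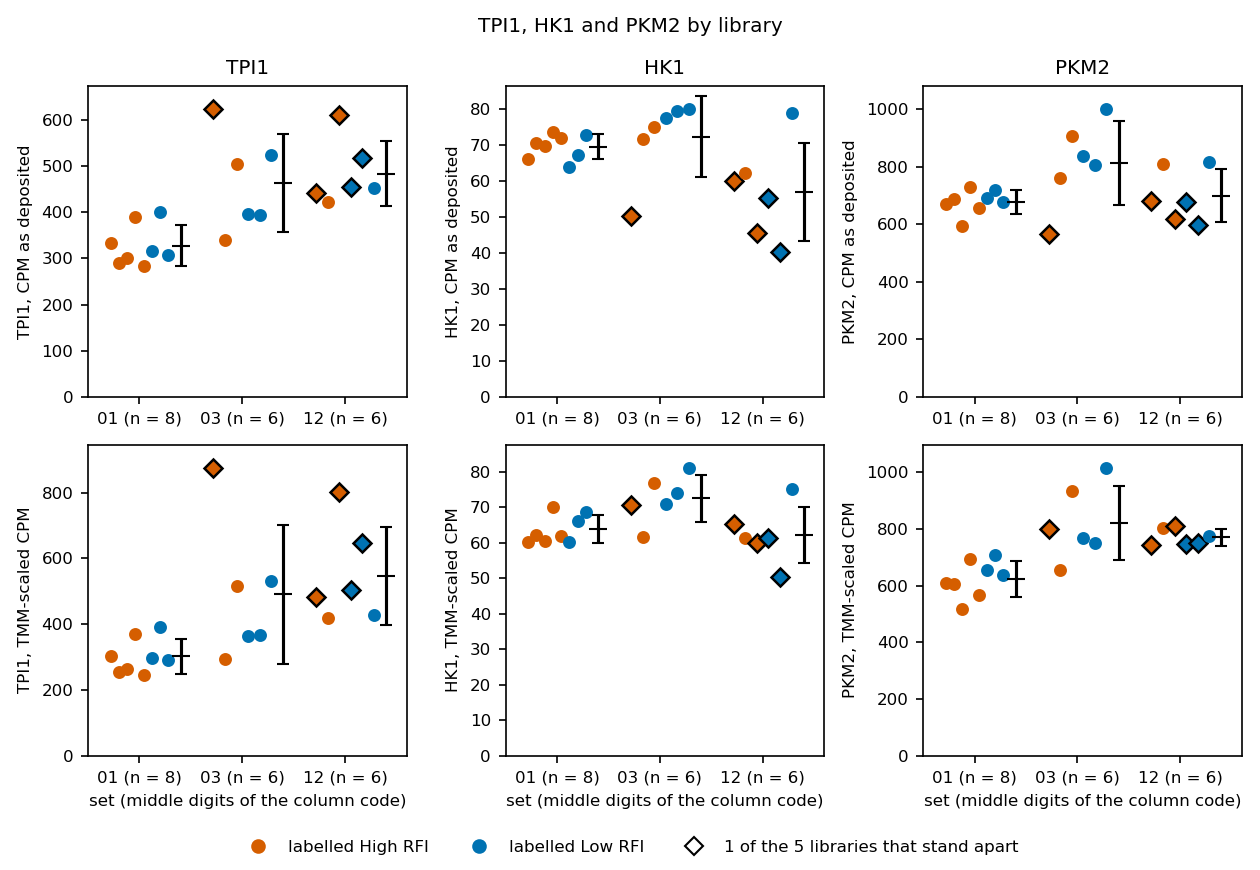
Expression of TPI1, HK1 and PKM2 in each of the 20 libraries (points, coloured by RFI label) on the deposited CPM scale (upper row) and after TMM scaling (lower row), by set of the column code. Bars give the mean ± SD of each set, and black-edged diamonds are the 5 libraries that stand apart. They hold the 5 lowest HK1 values as deposited (40.2 to 59.9 CPM). The 5 were picked by clustering on all genes, and the number of genes that separate them in this way was not counted.

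The first comparison asked whether the 3 transcripts differ between efficient and inefficient steers. No gene passed the test in this comparison, 0% of the 14293 tested by limma at an adjusted p of 0.05, with 154 genes at an unadjusted p under 0.05. On the recovered reads edgeR and DESeq2 also called 0 genes, with 163 and 316 at an unadjusted p under 0.05. In each of these fits that was less than a share of 0.05 of the genes tested, which evenly spread p-values would give. Why it was so low was not tested. TPI1 ran from 308 to 524 CPM in the Low RFI group (median 400 CPM, n = 9) and from 284 to 623 CPM in the High RFI group (median 390 CPM, n = 11), so the groups overlapped almost completely. The difference after TMM scaling, Low minus High, was 0.047 ± 0.234 (SE) on the log2 scale, with a 95% interval of -0.44 to 0.53 and an adjusted p of 1.

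HK1 ran from 40.2 to 80.0 CPM in the Low RFI group (median 72.8 CPM) and from 45.6 to 75.0 CPM in the High RFI group (median 69.6 CPM). Its log2 difference was 0.055 ± 0.081 (SE), with an interval of -0.11 to 0.22. PKM2 ran from 598 to 1001 CPM in the Low RFI group (median 719 CPM) and from 568 to 909 CPM in the High RFI group (median 681 CPM), and its log2 difference was 0.11 ± 0.11 (SE), with an interval of -0.12 to 0.34. Both had an adjusted p of 1. In this fit the intervals reached 0.53 on the log2 scale for TPI1 and 0.22 for HK1. They hold for these labels and all 20 libraries only, and do not bound the differences under other groups or libraries.

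With the groups of the study's list no member was called either by limma, and DESeq2 was not run on those groups. TPI1 differed by -0.0026 ± 0.246 (SE) on the log2 scale, HK1 by 0.058 ± 0.078 and PKM2 by -0.024 ± 0.125, all with an adjusted p of 1 by limma, and 0 genes were called with 58 at an unadjusted p under 0.05. Over the 12 steers with the same group in both sources, the differences were 0.027 for TPI1, 0.12 for HK1 and 0.10 for PKM2, again with adjusted p-values of 1. Without the 5 libraries that stand apart, the labels gave log2 differences of 0.21 ± 0.165 (SE) for TPI1, 0.14 ± 0.075 for HK1 and 0.18 ± 0.127 for PKM2. All 3 had an adjusted p of 0.931, and 0 genes were called with 387 at an unadjusted p under 0.05.

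Within the sets the sign of the RFI difference was not stable. TPI1 differed, Low minus High, by 0.19 on the log2 scale in set 01 (3 against 5 libraries), by -0.30 in set 03 (3 against 3) and by -0.070 in set 12 (3 against 3). HK1 differed by 0.046, 0.11 and -0.018 in the same sets, and PKM2 by 0.16, 0.087 and -0.051. None passed in limma, with adjusted p-values from 0.412 to 1, and the test of whether the RFI difference itself differs between sets gave adjusted p-values from 0.5 to 1 for the members. Set 01 was the only one with any gene called, 11 lower ones or 0.0754% of the 14591 tested there, and none of them was a member.

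The second comparison was between the 3 sets. Most genes differed between sets 12 and 01, with 62.2% of the 14569 tested past an adjusted p of 0.05 in limma, 31.5% higher and 30.6% lower in set 12. Of the members, TPI1 and PKM2 were among the higher ones, and their calls are read against that background. TPI1 was 284 to 400 CPM in set 01 (median 312 CPM) and 423 to 611 CPM in set 12 (median 453 CPM), so every library of set 12 was above every library of set 01. After TMM scaling the groups again did not overlap, at 245 to 393 and 418 to 802. Among all genes tested, set 12 lay wholly above set 01 in 9.67% after scaling and in 7.21% as deposited, and wholly below it in 9.2% and 10.3%. The log2 difference was 0.83 ± 0.205 (SE), adjusted p = 0.00379 by limma, and it was called with each of the 20 libraries left out in turn, at differences of 0.71 to 0.90.

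PKM2 after TMM scaling was 516 to 707 in set 01 (median 625) and 742 to 811 in set 12 (median 762), without overlap, and differed by 0.31 ± 0.097 (SE) on the log2 scale with an adjusted p of 0.0109 by limma. On the deposited scale the ranges overlapped widely, at 594 to 729 CPM (median 682 CPM) in set 01 and 598 to 815 CPM (median 679 CPM) in set 12. The difference was then 0.038, with an adjusted p of 0.768. HK1 showed the reverse dependence. As deposited it was 63.8 to 73.7 CPM in set 01 (median 70.1 CPM) and 40.2 to 78.9 CPM in set 12 (median 57.7 CPM), a log2 difference of -0.31 ± 0.126 (SE) with an adjusted p of 0.0397 by limma. After scaling HK1 differed by -0.043 ± 0.084 and was not called (adjusted p = 0.662). The deposited scale moved the median gene by -0.23 on the log2 scale between these sets and changed the calls from 4595 higher and 4464 lower to 2918 higher (20%) and 5681 lower (39%), 59% in all. On both scales HK1 lay closest to the median gene, PKM2 lay above it and TPI1 lay farthest above it.

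Set 12 holds 4 of the 5 libraries that stand apart, and 2 libraries are left in it without them. Without those 5 libraries, 8 genes or 0.0533% of 15008 were called between sets 12 and 01 and no member was among them. TPI1 then differed by 0.50 ± 0.205 (SE) on the log2 scale with an adjusted p of 0.225 by limma, PKM2 by 0.34 ± 0.152 with an adjusted p of 0.233 and HK1 by 0.091 ± 0.109 with an adjusted p of 0.604. The difference of PKM2 was thus no smaller than over all libraries, at a larger SE, and that of TPI1 was smaller. The libraries left in set 12 were 115 and 409. Their TPI1 levels of 423 and 451 CPM as deposited were still above the highest value of set 01, which was 400 CPM.

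Between sets 03 and 01, 59 genes or 0.405% were called, and no member by limma. TPI1 was 340 to 623 CPM in set 03 (median 450 CPM), and the log2 difference from set 01 was 0.62 ± 0.205 (SE) with an adjusted p of 0.14. PKM2 was 568 to 1001 CPM in set 03 (median 822 CPM), at 0.39 ± 0.097 with an adjusted p of 0.0789, and HK1 was 50.2 to 80.0 CPM (median 76.2 CPM), at 0.18 ± 0.084 with an adjusted p of 0.205. DESeq2 on the recovered reads called 3.62% of its genes here, among them TPI1 (adjusted p = 0.043) and PKM2 (adjusted p = 0.00209). Without library 47, the difference of TPI1 was 0.43 with an adjusted p of 0.328 by limma.

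Between sets 12 and 03, 0.837% of genes were called and again no member. TPI1 differed by 0.21 ± 0.219 (SE) on the log2 scale, HK1 by -0.22 ± 0.09 and PKM2 by -0.075 ± 0.104, with adjusted p-values of 0.501, 0.165 and 0.615 by limma. The calls in this contrast depended on which libraries were left out. Without all 5 libraries that stand apart, 1 of 15008 genes was called, with 2 libraries left in set 12. Leaving out library 47 alone takes the only such library from set 03 and keeps 4 in set 12. Without library 47 the share of genes called was 50.2%, and HK1 was among the lower ones with a log2 difference of -0.23 and an adjusted p of 0.0466, whereas TPI1 (0.40, adjusted p = 0.0766) and PKM2 (-0.08, adjusted p = 0.547) were not called.

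**Figure D2:**
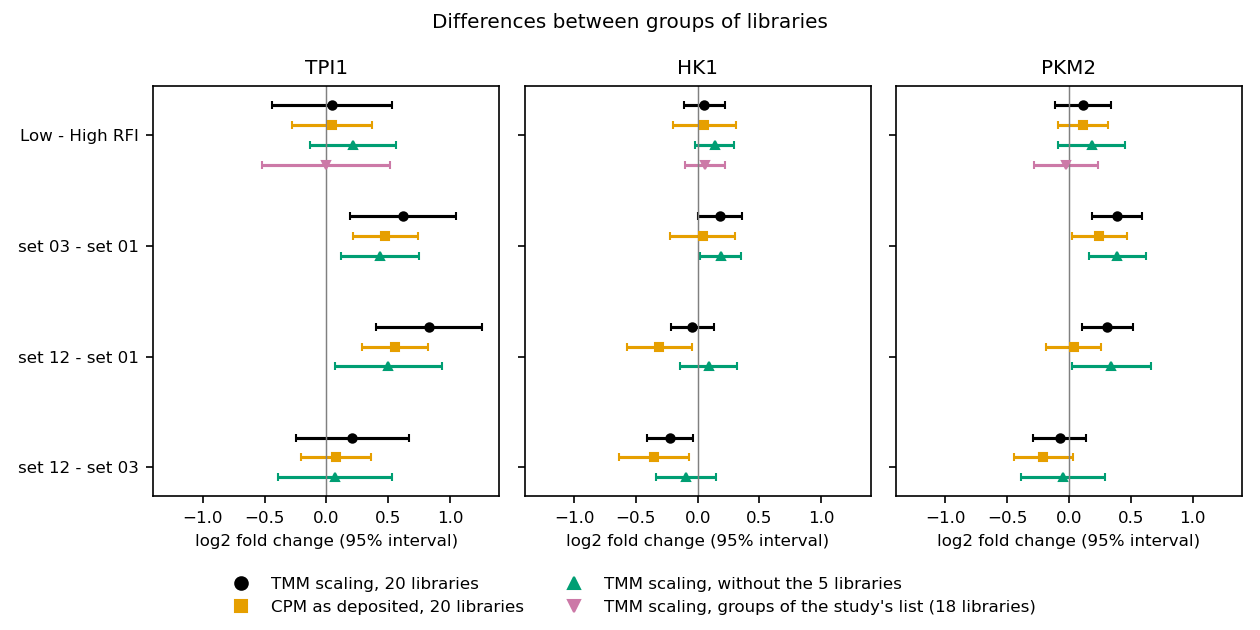
Log2 fold change of TPI1, HK1 and PKM2 with its 95% interval from limma, for Low minus High RFI and for the 3 contrasts between sets, under different scalings, libraries and group sources. The Low minus High intervals all include 0, and the TPI1 difference between sets 12 and 01 is 0.83 over all libraries and 0.50 without the 5 that stand apart.

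Ratios between the enzymes within a library do not depend on how the libraries are scaled. Since gene lengths were not used, a ratio is one of reads, not of molecules, and only its change between libraries can be read. There were 3.95 to 13.4 reads of TPI1 per read of HK1 over the 20 libraries. The 15 libraries had 3.95 to 6.81, with a median of 5.05. Above all of them were the 5 libraries that stand apart, with 7.38 in library 105, 8.21 in library 317, 12.4 in library 47, 12.9 in library 345 and 13.4 in library 155. How often ratios of other gene pairs separate these libraries was not counted.

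TPI1 reads per PKM2 read varied less than either gene in the 15 libraries, at 0.423 to 0.556 with a median of 0.498 and a coefficient of variation of 9.21%. On the deposited scale TPI1 itself varied by 20.1% and PKM2 by 14.1% in the same libraries. The 5 libraries that stand apart were again all higher, with 0.65 in library 105, 0.671 in library 317, 0.864 in library 345, 0.988 in library 155 and 1.10 in library 47. In library 47 alone TPI1 had more reads than PKM2. PKM2 reads per HK1 read ran from 8.53 to 14.9 and the libraries that stand apart, at 11.3 to 14.9, overlapped with the other 15, at 8.53 to 13.1.

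None of the 3 ratios passed the test between the RFI groups. By exact permutation tests over all 167960 splits, two-sided, the TPI1/HK1 ratio was 0.994-fold in Low against High RFI (p = 0.974), TPI1/PKM2 was 0.954-fold (p = 0.716) and PKM2/HK1 was 1.04-fold (p = 0.527), each with an adjusted p of 0.974. With the study's list the folds were 0.958, 1.01 and 0.944, each with an adjusted p of 0.9 in the exact test. Within sets the exact adjusted p-values ran from 0.536 to 1, and in sets 03 and 12 the smallest p that 3 against 3 libraries allow is 0.1.

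Between sets 12 and 01 all 3 ratios differed, in exact permutation tests over 3003 splits adjusted over the 9 tests of sets. The geometric mean of TPI1/HK1 was 8.61 in set 12 and 4.69 in set 01, or 1.84-fold (adjusted p = 0.0045, exact). TPI1/PKM2 was 0.69 and 0.481, or 1.43-fold (adjusted p = 0.005, exact), and PKM2/HK1 was 12.5 and 9.76, or 1.28-fold (adjusted p = 0.0045, exact). The order was thus that of the log2 differences in level on both scales, with TPI1 highest, PKM2 next and HK1 lowest. A ratio does not show which of its genes changed. The ranges overlapped slightly for each ratio. TPI1/HK1, for example, reached 5.94 in set 01 and went down to 5.72 in set 12.

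Set 03 lay between the other sets. Against set 01 its PKM2/HK1 ratio was 1.15-fold (adjusted p = 0.018, exact) and its TPI1/HK1 ratio 1.35-fold (adjusted p = 0.0426, exact), whereas TPI1/PKM2 was 1.18-fold with an adjusted p of 0.211 in the exact test. Without library 47 the TPI1/HK1 fold was 1.18 with an exact adjusted p of 0.102, and leaving out any of 8 other libraries also took it past 0.05. No ratio passed between sets 12 and 03 over all libraries, where the adjusted exact p-values were 0.185 to 0.26. Without library 47, TPI1/HK1 (1.55-fold, adjusted p = 0.0422, exact) and TPI1/PKM2 (1.39-fold, adjusted p = 0.039, exact) passed. Without all 5 libraries that stand apart, no ratio passed in any contrast of sets, and the smallest adjusted exact p was 0.14. The folds of set 12 over set 01 were then 1.33 for TPI1/HK1, 1.12 for TPI1/PKM2 and 1.19 for PKM2/HK1. With 2 libraries left in set 12, the smallest unadjusted p that its exact tests allow is 0.0222 against set 01 and 0.0476 against set 03, so these ratios could hardly pass after adjustment.

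**Figure D3:**
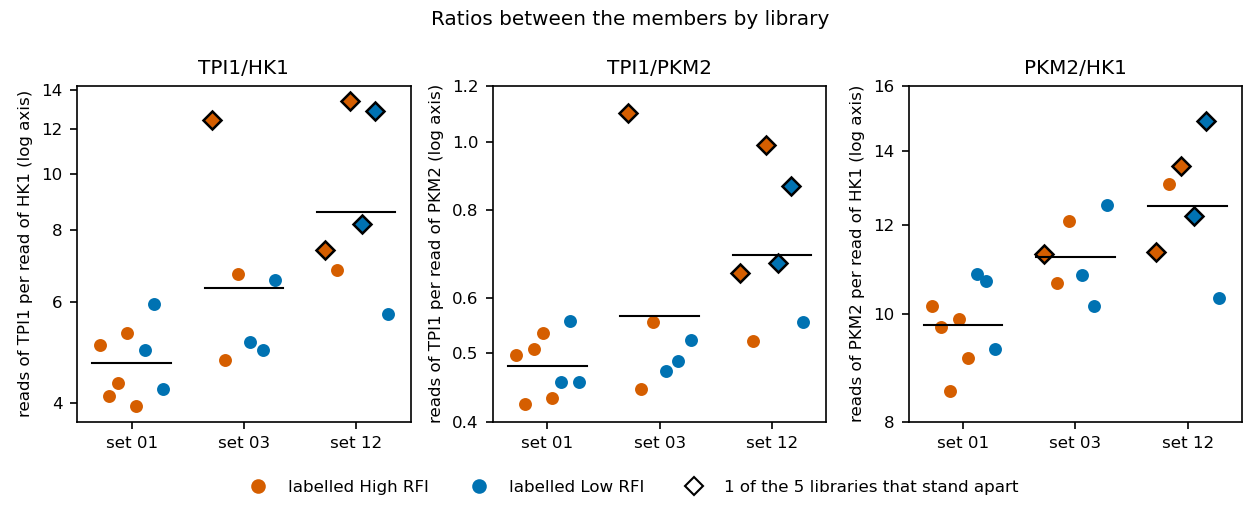
Reads of one enzyme per read of another in each library, on a log axis, by set, with the geometric mean of each set as a line. The 5 libraries that stand apart (diamonds) lie above all other libraries for TPI1/HK1 (7.38 to 13.4 against 3.95 to 6.81) and for TPI1/PKM2 (0.65 to 1.10 against 0.423 to 0.556), and among them for PKM2/HK1. Ratios of other gene pairs that separate these libraries were not counted.

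The third question was whether the enzymes vary together. Because 5 libraries form a separate cluster, the enzymes were not correlated over all 20, and 5 are too few for a value of their own. Over the other 15 libraries, on the TMM scale, TPI1 and PKM2 rose and fell together, with Pearson's r = 0.949 (adjusted p = 3e-05) and Spearman's rho = 0.929 (adjusted p = 6e-05) in permutation tests with 100000 permutations. The unadjusted p of this r, 1e-05, is the smallest they can give. Without the 2 libraries farthest from the median of TPI1, libraries 205 and 299, r was 0.926. Within set 01, r was 0.844 over its 8 libraries. The relation also passed on the deposited scale, with r = 0.904 and rho = 0.90 (permutation adjusted p = 3e-05 for each).

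HK1 followed the other enzymes less closely, and how closely depended on the scaling. With TPI1, r was 0.785 (permutation adjusted p = 0.00058) and rho 0.611 (adjusted p = 0.0182) over the 15 libraries after TMM scaling, and r was 0.703 without libraries 205 and 299. With PKM2, r was 0.801 (permutation adjusted p = 0.000465) and rho 0.693 (adjusted p = 0.00837), and r was 0.616 without libraries 55 and 299. As deposited, r was 0.432 with TPI1 (permutation adjusted p = 0.107) and 0.527 with PKM2 (permutation adjusted p = 0.0655). Within set 01, r of HK1 was 0.599 with TPI1 and 0.628 with PKM2 after scaling, but -0.083 and -0.0026 as deposited. Sets 03 and 12 hold 5 and 2 of the 15 libraries, too few for a value. TMM scaling divides all genes of a library by the same factor. Over all genes, the median r with TPI1 was 0.0485 after scaling and -0.248 as deposited, and with HK1 it was 0.0487 and -0.0176.

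The 5 libraries that stand apart lay off this relation. On the deposited scale TPI1 and PKM2 were in opposite order at the extremes, where library 47 had the most TPI1 (623 CPM) and the least PKM2 (568 CPM), and library 105 had the least TPI1 (442 CPM) and the most PKM2 (681 CPM). After TMM scaling this opposition was gone. Library 105 was then the lowest of the 5 for both genes (TPI1 482, PKM2 742), and libraries 47 (TPI1 876, PKM2 799) and 155 (TPI1 802, PKM2 811) were the highest for both. These are values of 5 libraries and were not tested.

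**Figure D4:**
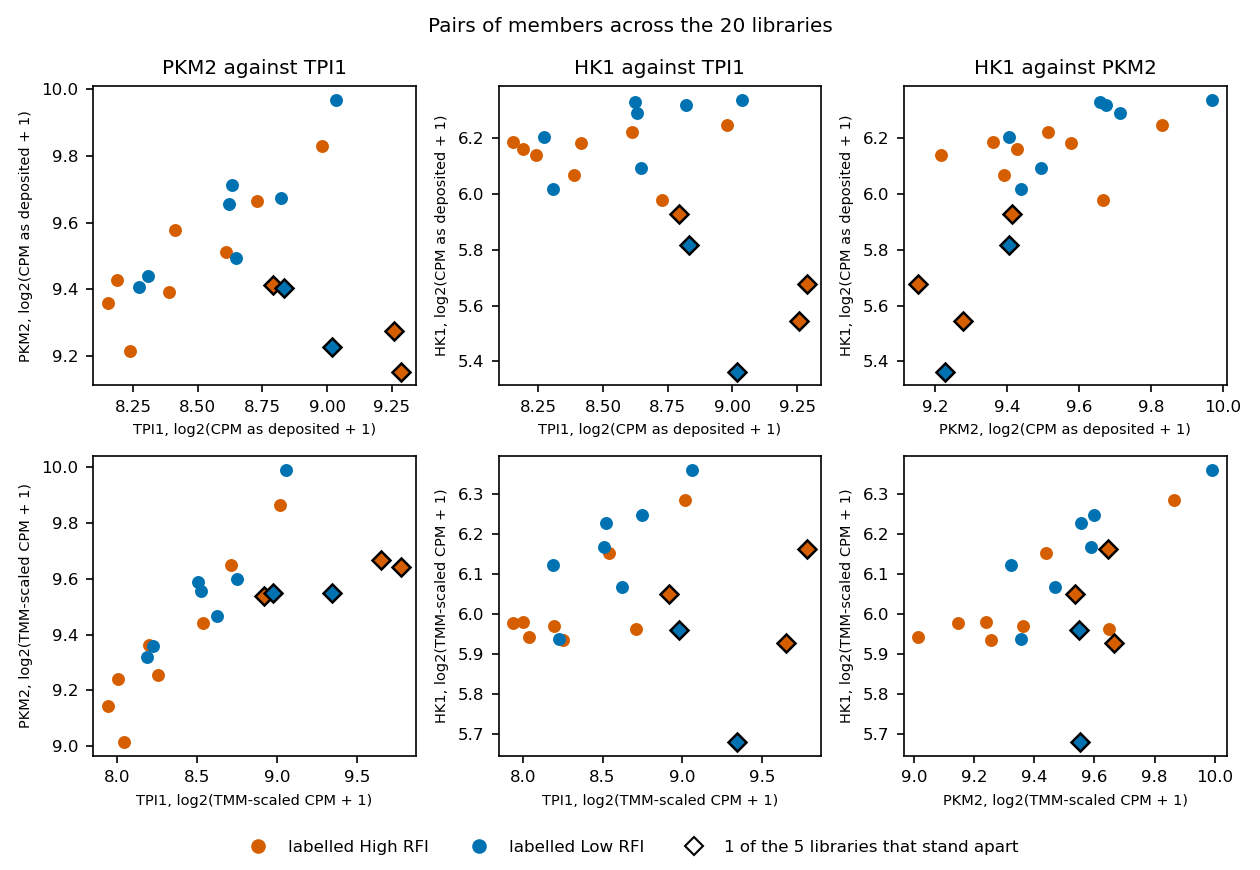
Each pair of enzymes across the 20 libraries on a log2(CPM + 1) scale, as deposited (upper row) and after TMM scaling (lower row). PKM2 rises with TPI1 in the 15 libraries drawn as circles (r = 0.904 as deposited, 0.949 scaled), and the 5 diamonds lie off that line towards more TPI1.

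Among the 102 genes that passed the filter and whose identifier the study's list of genes pairs with a symbol, those with the highest and lowest r with each member were named. They were ranked by r over all 20 libraries after TMM scaling, and because of the separate cluster the values given are those over the other 15 libraries. The words nearest, farthest and lowest refer to that ranking, and the order over the 15 libraries can differ. The study chose that list on these samples, and the genes share depth and scaling within each library, so the coefficients describe and were not tested. Nearest to TPI1 were RUVBL1, an ATPase of chromatin remodelling complexes (r = 0.968), TUBA4A, an alpha tubulin (r = 0.959), PSMB6, a catalytic subunit of the proteasome (r = 0.948), and GNB2, a G protein beta subunit (r = 0.925). Farthest were GOLGB1, a large Golgi protein (r = -0.92), and CCDC186 (r = -0.892). On the deposited scale these 6 values were 0.949, 0.932, 0.918, 0.871, -0.933 and -0.872.

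PKM2 shared TUBA4A (r = 0.976) and RUVBL1 (r = 0.946) with TPI1, beside GNB1, another G protein beta subunit (r = 0.825), and HSF1, a transcription factor of the heat shock response (r = 0.868). The lowest were MDM4, a p53 inhibitor (r = -0.892), and NBEAL1 (r = -0.843). On the deposited scale TUBA4A had r = 0.955 with PKM2, RUVBL1 0.893, GNB1 0.604, HSF1 0.736, MDM4 -0.822 and NBEAL1 -0.733. The genes named for HK1 followed it less closely. They were ZDHHC3, a palmitoyltransferase (r = 0.43), BAG6, a chaperone (r = 0.501), TUBB5, a beta tubulin (r = 0.552), and DNM2, a dynamin of endocytosis (r = 0.187), and at the low end EFNA3, an ephrin (r = -0.17), and GCFC (r = -0.528). On the deposited scale the first 4 had r = 0.216, 0.14, 0.0809 and 0.106 over the 15 libraries.

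Over all 14292 other genes and the 15 libraries, 594 had r above 0.9 with TPI1 after TMM scaling and 212 had r below -0.9, against 152 and 256 as deposited. With PKM2 the counts were 258 and 36 after scaling and 38 and 17 as deposited. With HK1 they were 0 and 1 after scaling and 0 and 0 as deposited.

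Other genes of energy metabolism with a known identifier were set beside the 3 enzymes. COX8A is a subunit of cytochrome c oxidase, ATP6AP1 and ATP6V0D1 belong to the vacuolar proton pump, and SUCLG2 is a succinate-CoA ligase subunit of the citric acid cycle. ETHE1 oxidizes sulfide in mitochondria, SLC25A39 is a mitochondrial carrier, and TECR acts in fatty acid elongation. The study picked these genes from the same animals, so their direction is not independent evidence. Between sets 12 and 01, 7 of 7 were higher by limma after TMM scaling, where 31.5% of all genes were, with a median log2 difference of 0.672 against 0.0035 over all genes. They ran from 0.18 for ATP6AP1 (adjusted p = 0.0194) to 0.89 for ETHE1 (adjusted p = 0.00536), and TPI1 at 0.83 was near the upper end. As deposited, ATP6AP1 differed by -0.087 and was not called (adjusted p = 0.348), and the other 6 were still called higher.

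Without the 5 libraries that stand apart, none of these 7 genes was called between sets 12 and 01, with log2 differences from 0.12 for ATP6AP1 to 0.42 for COX8A and adjusted p-values from 0.225 to 0.414 by limma. None was called between the other sets or between the RFI groups, where their median difference was -0.013 after TMM scaling. EGLN3, an oxygen-sensing hydroxylase that acts on the HIF factors known to control glycolytic genes, was called in none of the 4 contrasts, with 0.018 between sets 12 and 01 (adjusted p = 0.93) and -0.19 between the RFI groups (adjusted p = 1).

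MYL9 and KDR, markers of other cell types, were among the 62.2% of genes called between sets 12 and 01. Of all genes tested, 31.5% were higher and 30.6% lower, and without the 5 libraries that stand apart 0.0533% were called. Between sets 12 and 01, MYL9 was higher by 0.86 ± 0.155 (SE) on the log2 scale (adjusted p = 0.00185, limma), beside 0.83 for TPI1, and KDR was lower by -0.54 ± 0.229 (adjusted p = 0.0473). MYL9 was 264 to 406 CPM in set 01, 346 to 442 CPM in set 03 and 451 to 531 CPM in set 12, so sets 01 and 12 did not overlap. As deposited, set 12 lay wholly above set 01 in 7.21% of all genes tested. KDR was 35.9 to 58.6 CPM in set 01 and 15.4 to 44.1 CPM in set 12. Of the 5 keratinocyte markers only LYPD3 and PKP3 passed the filter and neither was called. The summed level of all 5 was 25.5 to 36.2 CPM in set 01, 27.3 to 62.6 CPM in set 03 and 23.5 to 37.0 CPM in set 12. Between the RFI groups none of these markers was called. The part of these cells in the differences of the 3 enzymes was not tested.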

How the data were processed

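The authors aligned paired reads to UMD3.1 with TopHat2 (version 2.0.10 in the submitters' processing notes), counted reads per Ensembl gene with HTSeq and deposited CPM, 1 file per library. Dividing each column by the worth of 1 read gave whole numbers for 100% of values above 0 (tolerance 0.01), and these recovered reads served edgeR and DESeq2.

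Values were scaled by TMM (edgeR 4.0.16) and tested as log2(CPM + 1) with limma 3.58.1 (trend) in R 4.3.3, over genes past filterByExpr (minimum count 10), with Benjamini-Hochberg adjustment over all genes and a threshold of 0.05. Fold changes are on the log2(CPM + 1) scale. Each contrast of sets was fitted over all 20 libraries with 1 shared spread. The alternatives were edgeR, DESeq2 1.42.0, RLE factors, CPM as deposited, a pseudocount of 0.1, no filter, covariates, other group sources and libraries left out. Ratios were compared by exact permutation, adjusted over 3 tests of RFI and 9 of sets. Permutations used Python 3.11.15 and numpy 2.4.6. The scripts were tested on simulated data.

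The 3 genes, the gene lists and the tests were chosen with earlier results of these data known. Genes named are the members, the listed energy and marker genes, and, of genes with a symbol, the 4 with the highest and the 2 with the lowest r with each member. A wider list of glycolysis genes was not analysed here, since 0 of 24616 identifiers occur in the reference table (ARS-UCD2.0), the symbols come from the study's list of genes, and no sequences or gene lengths were used. The sample labels name another RNA extraction reagent and input amount than the study's methods. Each library is 1 animal, and counting intervals cover counting error only.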

Additional observations from a re-analysis of the deposited data

Results flagged for a closer look

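Of 24 combinations of a group of 4 to 10 libraries with a level or ratio, 4 held a library far from the rest by Dixon's criterion. Chance alone meets it in about 1 of 20 independent cases. The combinations share libraries and genes, so the 4 cannot be set against that rate. PKM2 in library 299, at 1016 TMM-scaled CPM, was the highest of the 9 Low RFI libraries, where the next had 775. The TPI1/HK1 ratio of library 345, 12.9, was the highest of the Low RFI group, where the next was 8.21. In set 03, library 47 had a TPI1/HK1 ratio of 12.4, where the next had 6.71, and a TPI1/PKM2 ratio of 1.10, where the next had 0.554. Libraries 47 and 345 are among the 5 that stand apart over all genes, and library 299 is not. All 5 lay above the other libraries in TPI1/HK1 and TPI1/PKM2, as given above, so the flags of libraries 47 and 345 partly repeat that.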

How the results depend on the processing

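The call of TPI1 between sets 12 and 01 kept its direction and passed with every tool, scaling, pseudocount, filter and covariate tried and with each library left out, but not without the 5 libraries that stand apart. The 3 ratios between these sets passed under each alternative run for them except that one. The correlation of TPI1 with PKM2 was called under every alternative run (r = 0.904 to 0.939). Other results changed as given here, and the cause was not tested. No paired analysis was possible because the labels number no replicates that groups share. The correlations could not be run without the library with the lowest TMM factor, 47, since it is not among their 15. The 5 libraries were left out, and sets were tested alone, after seeing the data.

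Counts of genes called moved as follows. Low against High RFI gave 11 within set 01. Sets 03 and 01 gave 102 with edgeR, 726 with DESeq2, 30.0 without library 47 and 168 without the 5 libraries, against 59, and 19 to 281 with each library left out. Sets 12 and 01 gave 8 without the 5 libraries, against 9059. Sets 12 and 03 gave 244 with edgeR, 1000.0 with DESeq2, 7347 without library 47 and 1 without the 5 libraries, against 122, and 13 to 7347 with each library left out.

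Between the RFI groups, where no member was called, signs turned. On the log2 scale TPI1 was -0.072 with edgeR, -0.076 with DESeq2, -0.042 with the set as covariate, -0.0026 with the study's list, -0.030 with that list without the 5 libraries, -0.30 within set 03 and -0.070 within set 12, and -0.035 to 0.16 with each library left out (-0.017 without library 23, -0.013 without library 33, -0.023 without library 205, -0.035 without library 345). HK1 was -0.018 within set 12. PKM2 was -0.051 within set 12, and with the study's list -0.024, or -0.011 as deposited and -0.029 without the 5 libraries. The TPI1/HK1 log2 ratio turned to 0.092 without library 47, 0.077 without the 5 libraries and 0.14 within set 01. TPI1/PKM2 turned to 0.021 with the study's list, 0.025 without library 47, 0.033 without the 5 libraries and 0.028 within set 01. PKM2/HK1 turned to -0.083 with the study's list, -0.023 over steers with the same group in both sources, -0.028 within set 03 and -0.032 within set 12. No adjusted p was under 0.05 in any of these.

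Between sets 03 and 01, TPI1 (0.70) and PKM2 (0.38) passed with DESeq2, and PKM2 also without library 51 or 281 (range 0.32 to 0.45 over libraries left out). The TPI1/HK1 log2 ratio fell to 0.24 without library 47 or the 5 libraries (0.24 to 0.52 over libraries left out). PKM2/HK1 stayed at 0.20 without the 5, with the same libraries and unadjusted p as without library 47, and missed the threshold through the adjustment over the 9 tests. Between sets 12 and 01, as deposited, HK1 passed at -0.31 and PKM2 failed at 0.038. Without the 5 libraries TPI1 (0.50), PKM2 (0.34), TPI1/HK1 (0.41), TPI1/PKM2 (0.16) and PKM2/HK1 (0.25) were not called, with 2 libraries left in set 12, and HK1 turned to 0.091. HK1 was -0.099 to 0.015 with each library left out, and positive only without library 345. Between sets 12 and 03 without library 47, HK1 (-0.23), TPI1/HK1 (0.63) and TPI1/PKM2 (0.48) passed. With each library left out HK1 was -0.28 to -0.17, TPI1/HK1 0.31 to 0.63, TPI1/PKM2 0.18 to 0.48 and PKM2/HK1 0.10 to 0.21, which passed without library 409. The correlations of HK1 as deposited fell to 0.432 with TPI1 and 0.527 with PKM2.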
